A study of Mus musculus with 8 samples.

Results

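The interleukin and interferon genes were described by their position in lamina associated domains (LADs) of mouse 3T3-L1 cells. They were taken as the protein-coding genes whose symbol is Il followed by a digit or starts with Ifn, which gave 106 of 22367 protein-coding genes on 21 chromosomes. Of these, 15 form the type I interferon cluster of chromosome 4, and 91 lie elsewhere. The 106 genes are not independent of each other, because neighbours share a LAD. With genes placed together where neighbouring starts lay under 1 Mb apart, they fell into 59 loci, and 18 of these loci held 65 of the genes.

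3T3-L1 is an established fibroblast line that becomes fat cells in culture, and the study compared 4 states of it. These were untreated preadipocytes (day 0), adipocytes (day 9) labelled as carrying control non-target shRNA, adipocytes (day 9) carrying Tmem120a shRNA, and adipocytes (day 9) carrying Tmem120a/b shRNA. The adipocytes with control shRNA are called adipocytes or control adipocytes, and the last pair the Tmem120a knockdown and the Tmem120a/b knockdown. Tmem120a and its paralog Tmem120b encode membrane proteins of the nuclear envelope. Cells of every state were transduced with lentivirus for Dam, a bacterial methylase that marks the sequence GATC, or for a LaminB1-Dam fusion, which marks DNA near the nuclear lamina. Each state had 1 Dam and 1 LaminB1-Dam library, 8 libraries in all, and each LAD list rests on 1 such pair. No value below therefore has a spread between replicates, no test between states was possible, and a difference between lists cannot be set against biological or technical error. The preadipocytes are labelled as untreated, with no shRNA named, so by these labels differentiation and the control shRNA cannot be told apart in the comparison with adipocytes. The text of the study also speaks of an empty vector as the control for the knockdown, and which of them these adipocytes carried was taken from the labels. The lists hold positions only. Depth, LAD strength, the degree of knockdown and the markers that define preadipocytes and adipocytes could not be read from them.

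Interleukins and interferons are secreted messengers of the immune system. They bind receptors that signal mostly through JAK kinases and STAT factors, or, for the IL-1 and IL-17 families, through adaptors of inflammatory signalling. Type I interferons are made on detection of virus and form a tight array of short genes without introns. Fat tissue makes and responds to several of these messengers, among them IL-6 and IL-1 beta. LADs are broad stretches of chromatin at the nuclear periphery in which most genes are silent or little used, so the position of an immune gene in a LAD is a description of where it lies in the nucleus. No expression was measured in these files.

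The type I interferon cluster lay across a LAD border in every list. It runs from Ifnb1 (interferon beta) to Ifne (interferon epsilon, an interferon of epithelia of the reproductive tract) over 358.2 kb, chr4:88167929-88526105 in mm9. Each list held exactly 1 LAD inside that span, and all 4 LADs covered the same stretch near the Ifnb1 end. DamID reads the genome between GATC sites, and all 8 borders of these LADs fall at such a site. They are given here from the plus strand of the mm9 reference with 13 bases on either side, with the GATC in capitals, because they set which interferon genes were counted inside.
preadipocyte list, lower border, chr4:88210521-88210550: tagattggggaacGATCttaccaatcctac
preadipocyte list, upper border, chr4:88315686-88315715: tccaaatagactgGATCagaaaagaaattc
adipocyte list, lower border, chr4:88213745-88213774: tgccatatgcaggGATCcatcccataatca
adipocyte list, upper border, chr4:88310520-88310549: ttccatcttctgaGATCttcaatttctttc
Tmem120a knockdown list, lower border, chr4:88210108-88210137: agacaggcagaaaGATCaatggaatagaat
Tmem120a knockdown list, upper border, chr4:88360652-88360681: aaatgacatctagGATCgaacatctaagtg
Tmem120a/b knockdown list, lower border, chr4:88216067-88216096: catggcaaacatgGATCtgtcagaacgtgc
Tmem120a/b knockdown list, upper border, chr4:88319147-88319176: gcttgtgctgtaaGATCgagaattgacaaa

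The preadipocyte LAD was chr4:88210537-88315701 and covered 29.4% of the cluster. In adipocytes it was chr4:88213761-88310535 (27.0% of the cluster), and in the Tmem120a/b knockdown it was chr4:88216083-88319162 (28.8%). The Tmem120a knockdown LAD, chr4:88210124-88360667, was the longest at 150.5 kb and covered 42.0%. The lower border moved by 5.96 kb at most among the 4 lists, with 25 GATC sites between the outermost positions. The upper border moved by 50.1 kb, with 127 GATC sites between.

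**Figure D1:**
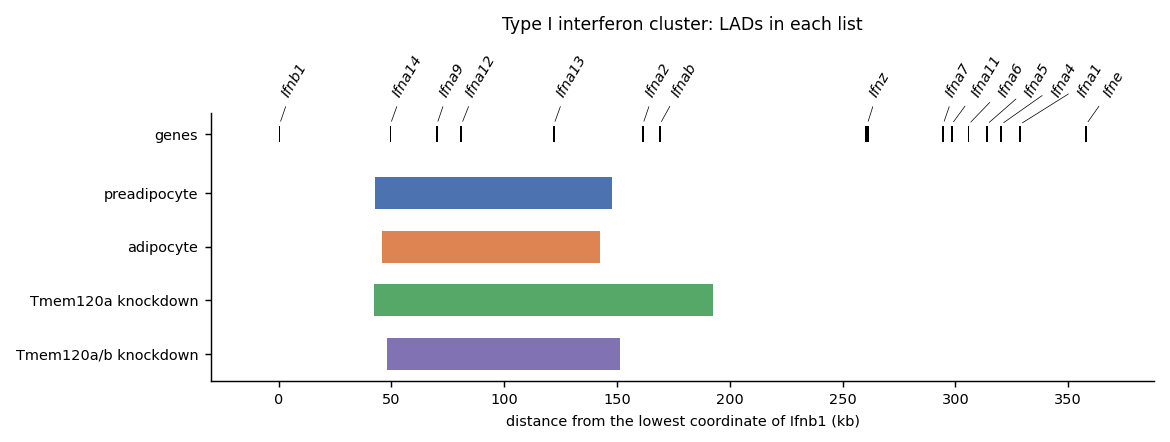
LADs over the type I interferon cluster of chromosome 4. The x axis is distance in kb from the lowest coordinate of Ifnb1, black bars are the 15 genes, and each coloured bar is the LAD of 1 list. The 4 bars start within 5.96 kb of each other and the Tmem120a knockdown bar alone extends over Ifna2 and Ifnab.

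Ifna14, Ifna9, Ifna12 and Ifna13, which encode interferon alpha subtypes, lay wholly inside the LAD in all 4 lists. Their starts were 1.62 to 70.3 kb inside the nearest border. Ifna14 was the closest to it, at 7.17 kb in preadipocytes, 3.94 kb in control adipocytes, 7.58 kb with Tmem120a shRNA and 1.62 kb in the Tmem120a/b knockdown. Ifna13 lay 25.3, 20.2, 70.3 and 28.8 kb inside in the same order. Thus 4 of the 15 genes were inside whatever the state, 26.7% against 19.3% of all protein-coding genes, and they share 1 LAD in each list. The adipocyte LAD over them is 96.8 kb long, so a minimum LAD length of 100 kb would leave all 15 outside in that list.

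Ifna2 and Ifnab, the next genes along, were outside in 3 lists and wholly inside in the Tmem120a knockdown. The start of Ifna2 was 14.1 kb outside the border in preadipocytes, 19.3 kb in adipocytes and 10.7 kb in the Tmem120a/b knockdown, and 30.9 kb inside it in the Tmem120a knockdown. Ifnab lay 21.5, 26.6 and 18.0 kb outside, and 23.5 kb inside in the Tmem120a knockdown. The other 9 genes were outside in every list. Ifnb1, the interferon that most cell types make early in a viral response, was 41.4 to 47.4 kb outside at the lower end. Ifnz, Ifna7, Ifna11, Ifna6, Ifna5, Ifna4, Ifna1 and Ifne lay beyond the upper border, from 67.4 kb (Ifnz in the Tmem120a knockdown) to 215.6 kb (Ifne in adipocytes).

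The promoters of genes on both sides of the border were compared as sequence. The stretches below are the 200 bases before the start of a gene that was always inside, of one that was inside in 1 list and of one that was never inside. They come from RefSeq windows (GRCm38.p6), each found by exact match at a single place of mm9, whose coordinates are given. Capitals mark a pair of GAAA separated by any 2 bases, the core of the element that interferon regulatory factors bind.
Ifna12, in a LAD of all 4 lists, chr4:88249281-88249480, minus strand: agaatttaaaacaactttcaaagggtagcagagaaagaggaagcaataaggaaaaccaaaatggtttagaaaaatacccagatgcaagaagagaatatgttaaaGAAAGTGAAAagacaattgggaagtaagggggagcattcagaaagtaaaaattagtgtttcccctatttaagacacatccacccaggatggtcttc
Ifnab, in a LAD of the Tmem120a knockdown list only, chr4:88337173-88337372, minus strand: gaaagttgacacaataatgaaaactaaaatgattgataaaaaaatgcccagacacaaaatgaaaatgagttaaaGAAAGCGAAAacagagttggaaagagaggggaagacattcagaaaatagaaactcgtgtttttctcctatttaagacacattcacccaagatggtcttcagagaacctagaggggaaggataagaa
Ifna4, in a LAD of no list, chr4:88487520-88487719, plus strand: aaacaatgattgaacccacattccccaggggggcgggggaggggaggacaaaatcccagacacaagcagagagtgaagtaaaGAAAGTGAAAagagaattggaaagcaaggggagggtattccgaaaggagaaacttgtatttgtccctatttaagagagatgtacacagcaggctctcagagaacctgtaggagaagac
The capitals begin 96 bases before the start in Ifna12, 126 in Ifnab and 118 in Ifna4, so the element was present on either side of the LAD border. On both strands of the RefSeq windows (250 bases before to 50 after the start), this pair was found in 10 of the 14 cluster genes that had a window, 71.4%. It was found in 3 of the 74 other interleukin and interferon genes with a window (4.05%) and in 3.99% of all 27025 RefSeq genes. The printed genes all carry the pair. In the cluster it was absent from the windows of Ifna13, in a LAD of all 4 lists, and of Ifnb1, Ifnz and Ifne, in a LAD of none. The match is a description of these letters and shows no binding.

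Part of the cluster is hard to map with short reads. Of its 31-base words, 33.9% occur more than once in mm9, and in single gene bodies the share ran from 0 (Ifnb1 and Ifne) to 88.3% (Ifna1), with a median of 45.1%. It was 31.2 to 50.2% in the 4 genes that were always inside, 25.4% in Ifna2 and 42.7% in Ifnab. The reference has no unknown base in the span, and its 963 GATC sites have a median spacing of 237 bases. How the authors treated reads that map to several places is not given in the sources used here, and the part of repeated sequence in these calls was not tested.

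Of the 4 interferon genes elsewhere, Ifng (interferon gamma, the type II interferon of T and NK cells) was wholly inside in all 4 lists. Its start lay 17.5 kb inside the border in preadipocytes, 198.9 kb in control adipocytes, 15.1 kb with Tmem120a shRNA and 138.6 kb in the Tmem120a/b knockdown. Ifnk (interferon kappa, made by keratinocytes) and the lambda interferons Il28a and Il28b were outside throughout. Ifnk came within 8.13 kb of a border in the Tmem120a/b knockdown against 154.3 kb in adipocytes. All 5 interferon receptor genes, Ifnar1, Ifnar2, Ifngr1, Ifngr2 and Il28ra, were outside in every list, as were 63.7% of all protein-coding genes, and the 5 lie in only 3 loci.

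Over all 106 genes, 28 had any part of the body in a LAD in preadipocytes, which is 26.4% against 26.2% of all protein-coding genes. In adipocytes it was 22 genes, 20.8% against 23.3%. The Tmem120a knockdown list held 25 genes, 23.6% against 27.5%, and the Tmem120a/b knockdown list 27 genes, 25.5% against 29.5%. In preadipocytes the share was thus close to that of all genes. In the other 3 lists it was a little below it, and less so by the start base given next. The median share of a body in a LAD was 0 in all 4 lists, for these genes and for all genes. Counted by the start base, which does not depend on gene length, 24 genes were inside in preadipocytes (22.6% against 23.3%), 21 in adipocytes (19.8% against 21.2%), 22 in the Tmem120a knockdown (20.8% against 22.6%) and 25 in the Tmem120a/b knockdown (23.6% against 23.8%). Without the interferon cluster, the 91 other genes had 24, 18, 19 and 23 bodies inside in the same order. Median gene length was 11.1 kb for the 106 genes, 0.647 kb for the cluster and 15.4 kb for all genes.

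Across the 4 lists, 18 genes were in a LAD of every list (17%, against 19.3% of all genes), 16 were in a LAD of 1 to 3 lists (15.1% against 16.9%), and 72 were in a LAD of none (67.9% against 63.7%). These shares are near the background, so they mark out nothing about the family as a whole. Of the 18, the bodies of 11 lay entirely inside in all 4 lists. They are Ifna14, Ifna9, Ifna12, Ifna13, Ifng, Il22, Il1f8, Il1f6, Il1f5, Il5ra and Il7r. The other 7 were crossed by a border in at least 1 list. The share of all genes with the whole body inside in all 4 lists was not computed, so whether 11 is many or few is not known.

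**Figure D2:**
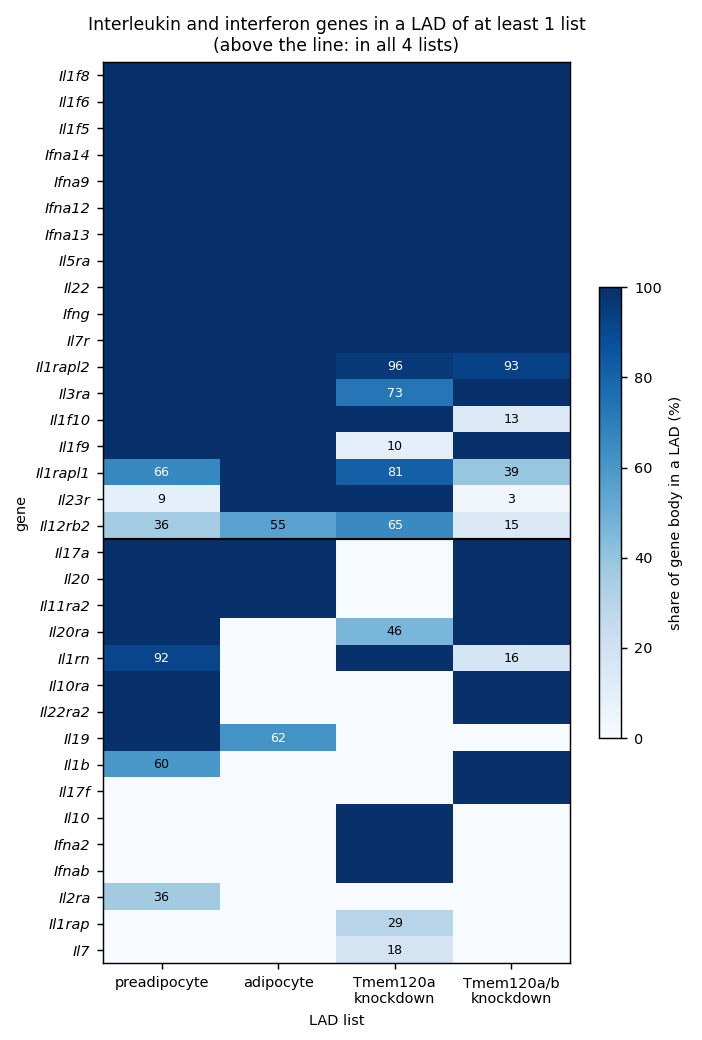
Share of the gene body in a LAD (%, colour) for the 34 genes that were in a LAD of at least 1 list (rows) in the 4 lists (columns). Printed numbers are shares between 0 and 100, the 18 genes above the line were in a LAD of all 4 lists, and the column of adipocytes has the fewest filled cells (22).

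**Figure D3:**
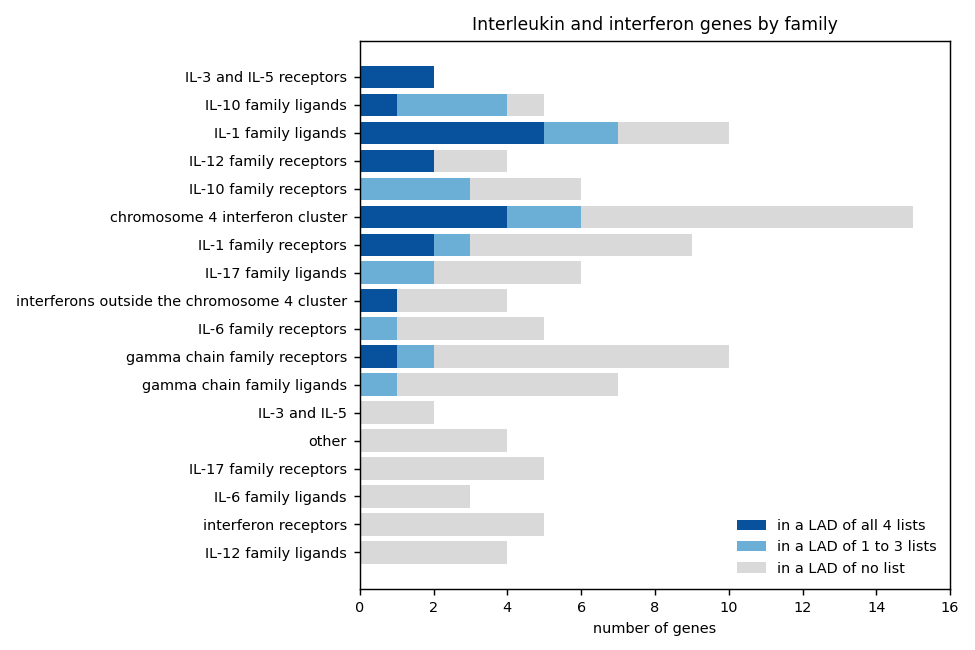
Number of genes of each family in a LAD of all 4 lists, of 1 to 3 lists and of none. In at least 1 list were 36.3% of all protein-coding genes, 4 of the 5 IL-10 family ligands (in 2 loci) and none of the 5 interferon receptors (in 3 loci).

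The IL-10 family held several of the genes that differed between lists. It comprises cytokines that either quieten immune cells (IL-10) or act on skin, gut and other lining tissue (IL-19, IL-20, IL-22, IL-24), and their receptors. Of its 11 genes, 1 was inside in all lists (9.09%, against 19.3% of all protein-coding genes), 6 in some (54.5% against 16.9%) and 4 in none (36.4% against 63.7%). The 6 lie in 3 loci, so they are not 6 separate cases. Il24, Il20, Il19 and Il10 are neighbours on chromosome 1, and the LAD over them was placed differently in each list. Of the borders around Il19 and Il10, 4 are shown, with the GATC in capitals, because they lie between, inside or just beyond these genes.
preadipocyte list, upper border of the LAD over Il20 and Il19, chr1:132885100-132885129: gtttccctgtagtGATCtgctacccaagca
adipocyte list, upper border inside Il19, chr1:132833825-132833854: gtcatatgataaaGATCcaaattcactaac
Tmem120a knockdown list, lower border of the LAD over Il10, chr1:132851561-132851590: cacccccacacttGATCaccatctccgttc
Tmem120a knockdown list, upper border of the LAD over Il10, chr1:132943556-132943585: gcttttaggaataGATCctacagagttctt

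Il20 (chr1:132803769-132807873) was wholly inside in preadipocytes, adipocytes and the Tmem120a/b knockdown and outside in the Tmem120a knockdown, where the nearest border was 43.7 kb from its start. Il19 (chr1:132829235-132836650) had 100% of its body inside in preadipocytes, 62.1% in adipocytes and none in either knockdown. In the Tmem120a/b knockdown the LAD over Il20 ended at 132825166, which left the start of Il19 outside by 11.5 kb. The adipocyte border fell in an intron of Il19, 2.81 kb from the gene's start, so that the start was already outside. Il10 (chr1:132916422-132921551), which encodes the main anti-inflammatory interleukin, was in a LAD of the Tmem120a knockdown list only, the one list in which Il20 was outside. It was outside in preadipocytes by 31.3 kb, in adipocytes by 82.6 kb and in the Tmem120a/b knockdown by 5.71 kb, and wholly inside in the Tmem120a knockdown, 27.1 kb from the border. Il24 was outside in all 4 lists and came within 5.84 kb of a border in adipocytes.

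Il22 (chr10:117641998-117647098), an interleukin that acts on gut and skin epithelium, was wholly inside throughout. In preadipocytes, adipocytes and the Tmem120a/b knockdown it shared 1 LAD with Ifng, of 273.3, 465.1 and 397.9 kb. The Tmem120a knockdown list had 2 LADs there, 180.8 kb over Il22 and 91.2 kb over Ifng, and both genes were still inside.

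Of the 6 receptor genes of the family, 3 were inside in preadipocytes and outside in control adipocytes, 50% against 4.81% of all genes, and the 3 lie in 2 loci. Il22ra2 (chr10:19341804-19354487), which encodes a soluble receptor that captures IL-22, was wholly inside in preadipocytes and in the Tmem120a/b knockdown, and outside in adipocytes (174.6 kb) and the Tmem120a knockdown (65.1 kb). Il20ra (chr10:19432393-19479859), a receptor chain for IL-19, IL-20 and IL-24, lies beside it and was covered at 100% in preadipocytes, 0 in control adipocytes, 46.2% with Tmem120a shRNA and 100% in the Tmem120a/b knockdown. One LAD of 251.8 kb covered both genes in preadipocytes and one of 262.6 kb did so in the Tmem120a/b knockdown. These LADs began 24.6 and 27.1 kb above the start of Ifngr1, a receptor chain for interferon gamma, and left it outside. Il10ra (chr9:45061922-45077232), the ligand-binding receptor for IL-10, was wholly inside in preadipocytes (LAD of 48.9 kb) and in the Tmem120a/b knockdown (140.0 kb). It was 1140.5 kb from any LAD in adipocytes and 34.4 kb from one in the Tmem120a knockdown. Il10rb, Il20rb and Il22ra1 were outside in all lists.

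**Figure D4:**
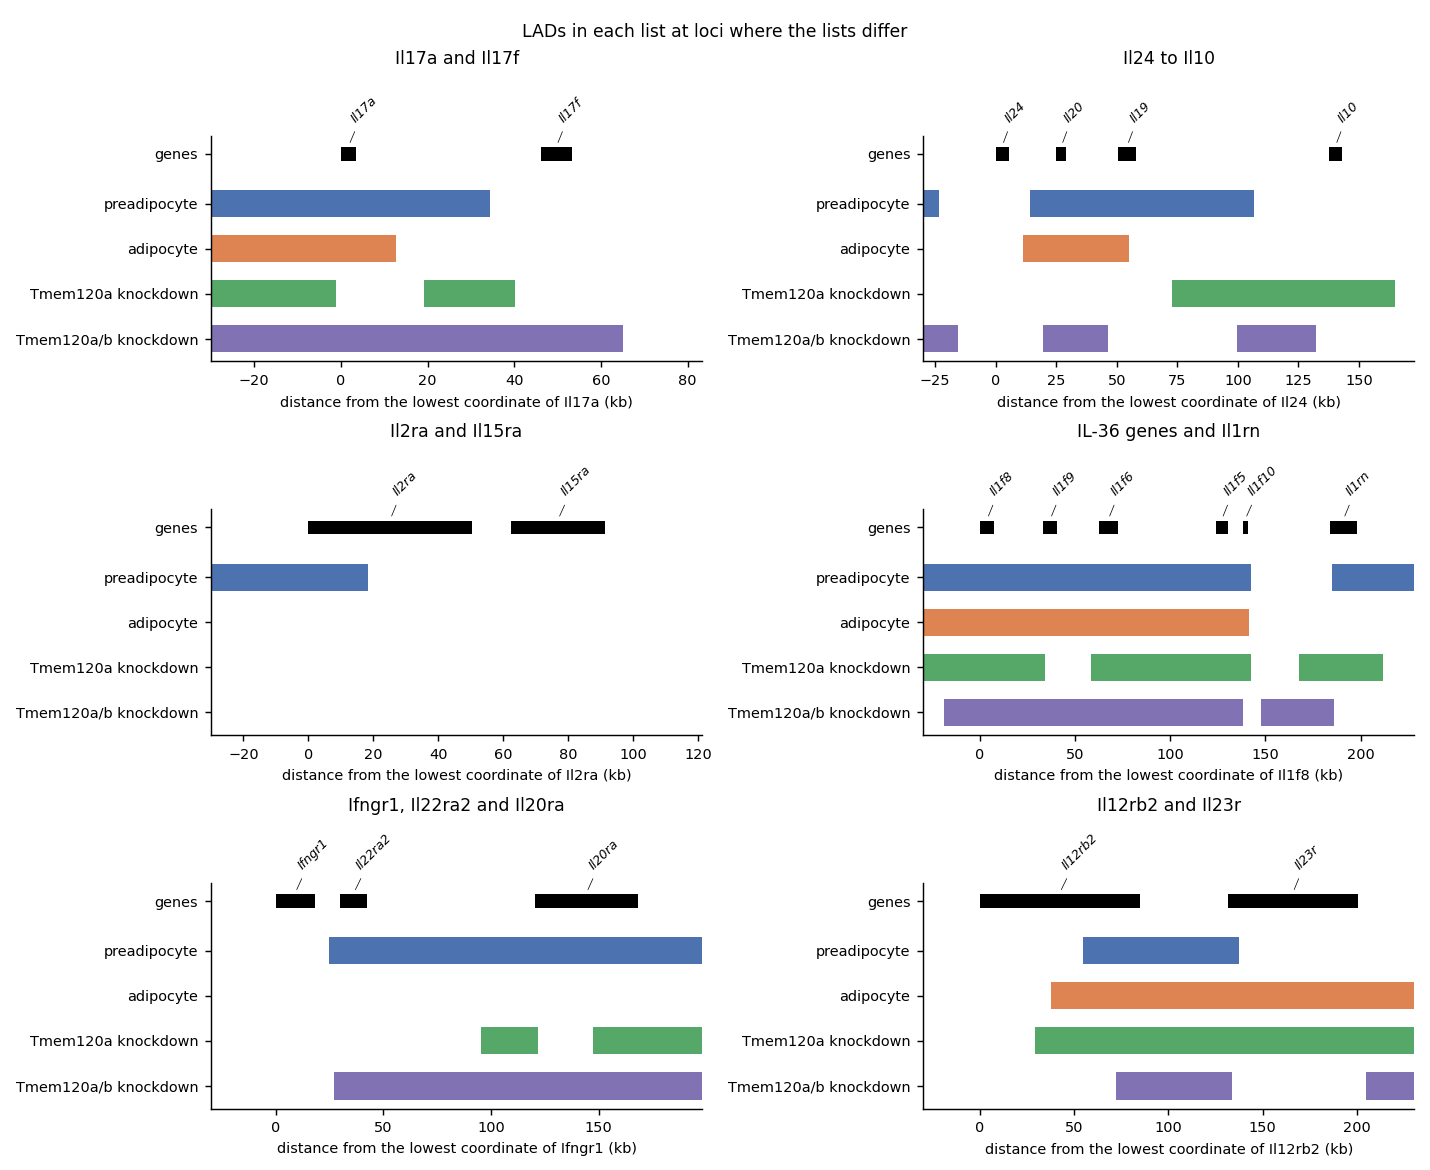
LADs (coloured bars, 1 row a list) and interleukin or interferon receptor genes (black bars) at 6 loci where lists differed. Each x axis is distance in kb from the lowest coordinate of the leftmost gene, a bar that reaches the edge of a panel continues beyond it, and over Il22ra2 and Il20ra the adipocyte row is empty while the preadipocyte and Tmem120a/b knockdown rows are filled.

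In the IL-1 family, which drives fever and inflammation, 5 of the 10 ligand genes were inside in all 4 lists (50%, against 19.3% of all protein-coding genes), 2 in some (20% against 16.9%) and 3 in none (30% against 63.7%). The 5 lie in 1 locus and are the block of IL-36 and related genes on chromosome 2: Il1f8 (IL-36 beta), Il1f9 (IL-36 gamma), Il1f6 (IL-36 alpha), Il1f5 (the IL-36 receptor antagonist) and Il1f10 (IL-38). One LAD covered them all in preadipocytes (717.9 kb), adipocytes (716.7 kb) and the Tmem120a/b knockdown (157.6 kb). The Tmem120a knockdown list had a gap inside the block, between a LAD of 606.6 kb and one of 83.8 kb, which left 9.84% of Il1f9 covered. In the Tmem120a/b knockdown the LAD ended inside Il1f10 and covered 13.1% of it. Apart from these values every gene of the block was covered at 100% in every list.

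Il1rn, which encodes the antagonist of the IL-1 receptor, lies next to that block (chr2:24192373-24207014) and differed more between lists than its neighbours. Its body was covered at 91.6% in preadipocytes, 0 in control adipocytes, 100% with Tmem120a shRNA and 16.5% in the Tmem120a/b knockdown, by LADs of 47.7, 44.5 and 38.3 kb. Its start-site state depends on which start is read. The start of the longest gene model was outside in preadipocytes and adipocytes and inside in both knockdowns. Of the 3 RefSeq starts, the one at 24192380 had the same states. The RefSeq starts at 24200811 and 24200891 were inside in preadipocytes and the Tmem120a knockdown and outside in adipocytes and the Tmem120a/b knockdown. Il1b (IL-1 beta, chr2:129190306-129196875) was covered at 60.0% in preadipocytes by a LAD of 16.6 kb that ended in an intron, 0 in control adipocytes, 0 with Tmem120a shRNA and 100% in the Tmem120a/b knockdown by a LAD of 45.1 kb. In adipocytes the nearest border was 359.2 kb from its start. Il1a, Il18 and Il33 were outside throughout.

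Among the 9 IL-1 family receptor genes, 2 were inside in all lists (22.2% against 19.3% of all genes), 1 in some (11.1% against 16.9%) and 6 in none (66.7% against 63.7%), which is near the background. The 2 are Il1rapl1 and Il1rapl2, long genes of 1374.8 and 1276.3 kb on the X chromosome that encode receptor-like proteins of synapses. Il1rapl1 was covered at 66.2% in preadipocytes by 3 LADs, at 100% in control adipocytes by 1 LAD of 4428.7 kb, at 81.4% in the Tmem120a knockdown by 12 LADs and at 39.4% in the Tmem120a/b knockdown by 9 LADs. Il1rapl2 was covered at 100%, 100%, 96.3% and 92.7% in the same order, by 1, 1, 2 and 6 LADs. The number of LADs in the whole lists was also lowest in control adipocytes, at 2542, against 3914 in preadipocytes, 5723 with Tmem120a shRNA and 6971 in the Tmem120a/b knockdown, while the covered length was 1161.4 to 1197.9 Mb. Il1rap, the shared second chain of IL-1 receptors, was outside except in the Tmem120a knockdown, where a LAD of 48.8 kb covered 29.4% of it from an intron, 104.8 kb from the start.

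The IL-12 and IL-23 receptor chains Il12rb2 and Il23r are neighbours on chromosome 6 and were touched by 1 shared LAD in every list. Each pairs with the Il12rb1 chain, which lets T cells respond to IL-12 and IL-23. Il23r (chr6:67372926-67441849) was covered at 8.82% in preadipocytes, 100% in control adipocytes, 100% with Tmem120a shRNA and 3.29% in the Tmem120a/b knockdown. Its start was 29.7 kb outside, 75.7 kb inside, 171.1 kb inside and 4.05 kb outside. Il12rb2 (chr6:67241312-67326182) was covered at 35.7%, 55.3%, 65.3% and 14.6%, with its start inside in all lists. The LAD was 83.1 kb in preadipocytes, 238.3 kb in control adipocytes, 3423.2 kb with Tmem120a shRNA and 61.4 kb in the Tmem120a/b knockdown. The genes for the partner chain Il12rb1, for Il27ra and for the 4 ligands of the family (Il12a, Il12b, Il23a and Il27) were outside in all lists, the state of 63.7% of all genes.

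Il17a and Il17f, cytokines of Th17 cells that act against fungi and bacteria, are neighbours on chromosome 1, and the other 4 IL-17 family ligand genes were outside in all lists. Il17a (chr1:20720986-20724577) was wholly inside in preadipocytes, adipocytes and the Tmem120a/b knockdown. In the Tmem120a knockdown it was outside by 1.05 kb, in a gap between 2 LADs. Il17f (chr1:20767232-20774351) was outside by 18.9 kb in preadipocytes, 40.6 kb in adipocytes and 13.3 kb in the Tmem120a knockdown, and wholly inside a LAD of 109.2 kb in the Tmem120a/b knockdown. The 5 IL-17 receptor genes were outside in every list, again the state of 63.7% of all genes.

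Of the cytokines and receptors that use the common gamma chain, with IL-13 and its receptors counted among them, 1 of 17 genes was inside throughout, 5.88% against 19.3% of all genes. This was Il7r, the IL-7 receptor of developing lymphocytes, in LADs of 409.5 kb in preadipocytes, 65.0 kb in control adipocytes, 116.1 kb with Tmem120a shRNA and 56.1 kb in the Tmem120a/b knockdown. Il2ra, the high-affinity chain of the IL-2 receptor, was covered at 36.3% in preadipocytes, including its start, and was outside in the other 3 lists, 154.2 to 165.2 kb from a border. Its neighbour Il15ra was outside in all. Il7, the ligand of Il7r, was covered at 17.8% in the Tmem120a knockdown alone, at the end away from its start.

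The receptor chains for IL-3 and IL-5, cytokines of myeloid cells and eosinophils, were both inside in all lists, the state of 19.3% of all genes. Il3 and Il5 themselves, which share 1 locus, were outside in all lists, the state of 63.7% of all genes, and with 2 genes on each side nothing is read from the contrast. Il5ra was wholly inside LADs of 1783.3 to 5191.3 kb. Il3ra was wholly inside in 3 lists and covered at 73.0% in the Tmem120a knockdown, where its start was 2.43 kb outside. In the IL-6 family only Il11ra2, a copy of the IL-11 receptor gene, met a LAD, 1 gene of 8 (12.5%, against 36.3% of all genes). It was wholly inside in preadipocytes, adipocytes and the Tmem120a/b knockdown and outside by 25.7 kb in the Tmem120a knockdown. Every 31-base word of Il11ra2 occurs more than once in mm9 and its RefSeq promoter window matched 2 places, so its state is uncertain. Il6, the IL-6 ligand released by fat cells, was outside, 464.3 to 777.1 kb from the nearest border.

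The comparison of preadipocytes with adipocytes asked which of these genes changed LAD state during differentiation. Bodies of 6 genes that met a preadipocyte LAD met none in adipocytes: Il2ra, Il1rn, Il1b, Il10ra, Il22ra2 and Il20ra. This is 5.66% of the 106, against 4.81% of all genes, and the 6 lie in 5 loci. None of the 106 was gained, against 1.88% of all genes. Read by the start base, 5 genes were lost (Il19, Il2ra, Il10ra, Il22ra2 and Il20ra, 4.72% against 3.94%) and 2 were gained (Il23r and Il1rapl1, 1.89% against 1.84%). The authors' own list of regions in LADs of preadipocytes but not adipocytes met 6 of the genes (5.66% against 5.76%), namely Il19, Il2ra, Il1rn, Il1b, Il22ra2 and Il20ra. It held no region at Il10ra, although the preadipocyte LAD there has no counterpart in the adipocyte list. The authors' list of regions in LADs of adipocytes only met Il23r over 91.2% of its body and Il1rapl1, 2 genes (1.89% against 3.08%). All these shares lie near the background. With LADs under 100 kb left out, 7 genes were lost, 6.60% against 2.98% of all genes, and of the 6 only Il22ra2 and Il20ra were among them. Of the 7, 4 were the interferon alpha genes under the adipocyte LAD of 96.8 kb.

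Both knockdown comparisons share the same adipocyte list, so a feature of that 1 list enters both. From adipocytes to the Tmem120a knockdown, 4 genes were lost from LADs, Il17a, Il20, Il19 and Il11ra2, which is 3.77% against 1.95% of all genes. These 4 lie in 3 loci, and 1 of them is the uncertain Il11ra2. In the same comparison 7 genes were gained, Il10, Il1rn, Il7, Ifna2, Ifnab, Il20ra and Il1rap, 6.60% against 6.13%. With at least 50% of the body required, 4 of the 7 were gained (3.77% against 3.59%). With LADs of at least 100 kb, 8 genes were gained (7.55% against 1.84%), of which 3 were among the 7 and 6 were interferon cluster genes, and 6 were lost (5.66% against 2.86%), of which 2 were among the 4. By the start base 4 were lost (Il17a, Il20, Il11ra2 and Il3ra, 3.77% against 2.44%) and 5 gained (Il10, Il1rn, Ifna2, Ifnab and Il20ra, 4.72% against 3.76%).

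From adipocytes to the Tmem120a/b knockdown, only Il19 was lost by its body (0.943% against 2.10%), and 6 genes were gained, Il17f, Il1rn, Il1b, Il10ra, Il22ra2 and Il20ra (5.66% against 8.36%). With at least 50% of the body required, 5 genes were lost (Il12rb2, Il19, Il1f10, Il1rapl1 and Il23r), 4.72% against 2.44%, so the count and its side of the background depend on how much of a body has to be covered. With LADs of at least 100 kb, 2 were lost (Il12rb2 and Il23r, 1.89% against 3.59%) and 8 were gained (7.55% against 3.08%), 4 of them among the 6. By the start base 2 were lost (Il23r and Il1rapl1, 1.89% against 2.69%) and 6 were gained (5.66% against 5.28%). The genes gained by body and by start were the same 6.

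Of the 6 genes lost during differentiation, 2 (Il1rn and Il20ra) were in a LAD in the Tmem120a knockdown, 33.3% against 41.4% of all genes lost. In the Tmem120a/b knockdown 5 of the 6 were in a LAD, 83.3% against 55.5%, and Il2ra was the exception. The 5 lie in 4 loci, and a share of 6 genes is coarse.

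Genes in LADs of more lists lay in DNA poorer in G and C. In the 100 kb around the start, the median G+C was 40.5% for the 18 genes in a LAD of all lists, 42.7% for the 16 in some and 45.5% for the 72 in none. The medians over all protein-coding genes of these classes were 39.9%, 42.5% and 46.2%. In the interferon cluster the 6 genes inside in at least 1 list ranged from 40.3 to 40.6%, while the 9 genes outside in all ranged from 40.5% (Ifne) to 47.5% (Ifnz). Neighbouring starts share much of their window, so these points are not independent.

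**Figure D5:**
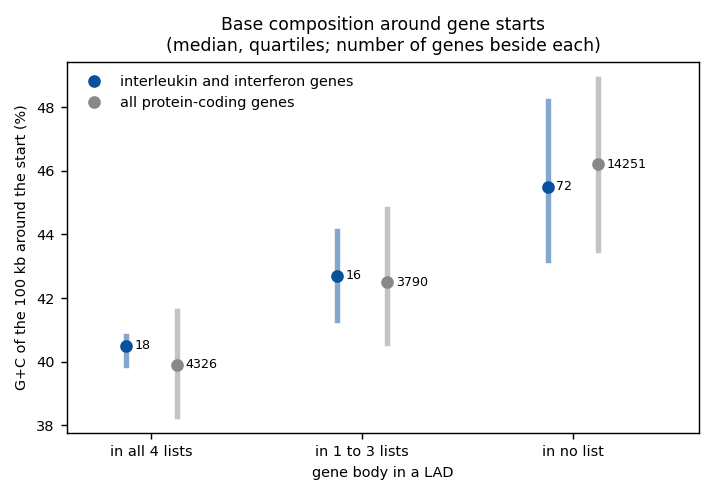
G+C content (%) of the 100 kb around the start for the interleukin and interferon genes (blue) and all protein-coding genes (grey), by how many lists had the body in a LAD. Dots are medians, bars run from the lower to the upper quartile, and both groups step up from about 40% in all 4 lists (medians 40.5% and 39.9%) to 45.5% and 46.2% in none.

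The 72 genes in a LAD of no list were not all far from one. Taking for each gene the nearest border over the 4 lists, the median distance from the start was 171.2 kb, against 183.6 kb over the 14251 such genes of the genome. A border lay within 50 kb of 14 of the 72 (19.4% against 19.3%), among them Il24 (5.84 kb), Ifnk (8.13 kb), Il9r (12.8 kb), Il2 (13 kb) and Ifngr1 (24.6 kb).

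Of 28 genes for JAK, STAT, IRF and SOCS proteins, which carry or curb the signal inside the cell, 25 were in a LAD of no list (89.3%, against 63.7% of all protein-coding genes). Of the others, 2 were in a LAD of some lists (7.14% against 16.9%) and 1 of all (3.57% against 19.3%). Stat4, the STAT factor of IL-12 signalling, was outside in preadipocytes and adipocytes and covered at 33.3% with Tmem120a shRNA and 26.3% in the Tmem120a/b knockdown. Irf4, a factor of lymphocytes and of fat cells, was covered at 8.13% in the Tmem120a/b knockdown alone. Socs6, an inhibitor of cytokine signalling, was covered at 37.0% in preadipocytes, 74.4% in control adipocytes, 65.7% with Tmem120a shRNA and 52.8% in the Tmem120a/b knockdown.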

How the data were processed

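LaminB1-DamID libraries of 4 states of 3T3-L1 cells were used as the authors' lists of LADs, 1 list for each state, and 2 lists of differential regions. The authors mapped reads to mm9 (BWA and limma are named in the submitters' processing notes), computed log2(LaminB1-Dam/Dam) per DpnI fragment and segmented it into LADs with DNAcopy. The deposited lists hold chromosome, start and end, with no count, ratio or score, so the depth is unknown and no interval is given. Starts were read as counted from 0 and are printed counting from 1. LAD borders fell at GATC sites of the mm9 reference for 96.5 to 98.8% of borders in the 4 lists.

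Gene bodies and starts came from GENCODE vM1. A gene was read as in a LAD where at least 1 bp of its body overlapped one. Overlaps, G+C, repeated 31-base words and motifs were computed with Python 3.11.15 and numpy 2.4.6, plots with matplotlib 3.10.9, and the interval code was tested on simulated data. RefSeq promoter windows were found for 88 of the 106 genes. Of 103 windows, 101 matched mm9 once. Named genes are all cluster genes, all genes whose body state differed between lists and those wholly inside throughout. Other genes are named to place families or borders and were chosen after their values were seen. The genes and lists were chosen with earlier results of these data known. Alternatives were a share of at least 50% of the body, LADs of at least 100 kb, gaps under 50 kb closed, a window around the start, omission of the cluster, and the deposited differential regions.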

Additional observations from a re-analysis of the deposited data

Results flagged for a closer look

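Il12rb2 moved in opposite directions in the 2 knockdowns against the same adipocyte list. The share of its body in a LAD was 55.3% in control adipocytes, 65.3% with Tmem120a shRNA and 14.6% in the Tmem120a/b knockdown, a difference of -50.6 percentage points (Tmem120a/b knockdown minus Tmem120a knockdown). The difference was not tested, since each list rests on 1 pair of libraries. The change is that of 1 border, which lay in introns of the gene in all 4 lists.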

How the results depend on the processing

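Of 86 values recomputed under other settings, 77 stayed within 1.5 times the reported value and 9 did not. The 77 include values that could hardly change or could not change at all. These are the median shares of a body, which were 0 throughout, and counts that held no cluster gene, recomputed without the cluster. The 77 are therefore not a measure of how stable the results are. With LADs of at least 100 kb, the interferon cluster fell out of the adipocyte list altogether (0% of the span and 0 genes), because that LAD is 96.8 kb long. The starts inside in the Tmem120a knockdown were then 14 in place of 22. Starts of all genes were not counted under that setting, so this fall has no background beside it. Under the same setting 3 genes were gained in adipogenesis (Il12rb2, Il17a and Il23r, 2.83% against 2.25% of all genes) and 2 were lost with the Tmem120a/b knockdown (Il12rb2 and Il23r, 1.89% against 3.59%, none of them lost in the reported count). With at least 50% of the body required, 2 genes were gained in adipogenesis (Il12rb2 and Il23r, 1.89% against 1.92% of all genes), 4 were gained with the Tmem120a knockdown (3.77% against 3.59%), all among the reported 7, and 5 were lost with the Tmem120a/b knockdown (Il12rb2, Il19, Il1f10, Il1rapl1 and Il23r, 4.72% against 2.44%). Against the deposited differential regions, 2 genes were gained in adipogenesis (Il1rapl1 and Il23r, 1.89% against 3.08%). No paired analysis was possible because each state has 1 Dam and 1 LaminB1-Dam library. For the same reason no replicate could be left out. The count of genes lost in adipogenesis was 7 with LADs of at least 100 kb (6.60% against 2.98%), but only 2 of the reported 6 (Il20ra and Il22ra2) were among them. Under that setting 6 genes were lost with the Tmem120a knockdown (5.66% against 2.86%), 2 of them among the reported 4. There 8 were gained (7.55% against 1.84%), 3 of them among the reported 7. With the Tmem120a/b knockdown 8 were gained (7.55% against 3.08%), 4 of them among the reported 6. All 4 shares lay above those of all genes. Interferon cluster genes made up 4 of the 7 lost in adipogenesis, 6 of the 8 gained with the Tmem120a knockdown and 4 of the 8 gained with the Tmem120a/b knockdown. With gaps under 50 kb closed, Il17a was no longer lost with the Tmem120a knockdown. All reported genes were shared in the other 5 counts of lost or gained genes, though the count gained in adipogenesis was 0 in both. Il24 joined the genes lost in adipogenesis (7 genes, 6.60% against 4.97%). Ifnk and Il24 joined those gained with the Tmem120a/b knockdown (8 genes, 7.55% against 8.58%). Counts of under 10 genes rest on a few loci, and a shift of 1 border can change several of them together.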

Other observations

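Within the interferon cluster lie 19 other protein-coding genes of the annotation. C87499 was wholly inside the LAD in all 4 lists. Gm13280, which lies between Ifna13 and Ifna2, was inside in the Tmem120a knockdown alone, as were Ifna2 and Ifnab. The other 17, among them Klhl9, a substrate adaptor of a ubiquitin ligase, were outside in every list.

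LAD borders fell inside the bodies of 14 interleukin genes, 77 times over the 4 lists, 74 times in an intron and 3 times in an exon. Most of these belong to Il1rapl1 and Il1rapl2. The share of the 106 genes with only part of the body in a LAD was 5.66% in preadipocytes against 6.17% of all protein-coding genes, 1.89% against 3.94% in control adipocytes, 7.55% against 8.52% with Tmem120a shRNA and 5.66% against 10.1% in the Tmem120a/b knockdown. It was below the share of all genes in each list, but only slightly in preadipocytes and the Tmem120a knockdown. The partly covered genes, 6, 2, 8 and 6 in the same order, were all among the 91 outside the interferon cluster. The cluster genes are very short (median 0.647 kb) and lower each share. Median length was 11.1 kb for the 106 genes and 15.4 kb for all genes. The part of gene length was not tested, so the direction is not read as a trait of the family.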
